A study of Homo sapiens with 12 samples.

Results

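The ZNF genes described here are the expressed members of the human gene family whose symbols join ZNF and a number. The deposited tables list 474 protein-coding genes with such a symbol, and 281 of them were taken, out of 56104 genes in all, because their raw count averaged 200 or more over the 6 RNA-seq libraries. ZNF513, ZNF595, ZNF502 and ZNF831 were left out by name; of these, 1 was above the minimum. Since the average runs over both genotypes, the choice used the RNA-seq level, but a gene could enter through the genotype in which it is high. This holds for 8 of the 281, with a mean count under 200 in KO (ZNF608, ZNF548, ZNF329, ZNF169 and ZNF266) or in Ctrl (ZNF32, ZNF596 and ZNF230), so their changes in total RNA are not independent of the choice. The members nearest the minimum were ZNF596, ZNF266 and ZNF230 with mean counts of 209, 212 and 212, and the genes just outside were ZNF517, ZNF441 and ZNF112 with 189, 186 and 186.

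All libraries came from HCT116, a human colorectal carcinoma line, at passages under 15. KO cells carry a knockout of PPM1G, a nuclear serine/threonine phosphatase, and were set against Ctrl cells. The labels do not say whether the KO is 1 clone, which site was edited or how Ctrl cells were made. Nascent RNA was measured by 4sU-seq in 3 KO and 3 Ctrl libraries, in which cells took up 500 µM 4sU (a thiol-bearing uridine) during a pulse of 10 min, and 4sU-labelled RNA was enriched from 300 µg by biotin. Steady-state or total RNA was measured by RNA-seq in 3 KO and 3 Ctrl libraries, and ERCC spike-in RNA was added to all 12. The labels speak of biological replicates for the 4sU-seq cultures and do not describe the RNA-seq cultures, so p-values measure the spread between these libraries, which may be technical.

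Proteins of the ZNF family read DNA through rows of C2H2 zinc fingers, small folds held by a zinc ion. Many carry a KRAB domain, which recruits the corepressor TRIM28 and with it the methyltransferase SETDB1, HP1 proteins and DNA methylation; these KRAB proteins are known above all for silencing retroelements. Others carry a SCAN domain for pairing with each other, or no such domain, and work as activators, as parts of corepressor complexes or on RNA. KRAB genes lie in clusters of similar copies, above all on chromosome 19, so reads of neighbours can be hard to assign, and how reads with several alignments were counted is not given in the sources used here.

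The 4sU-seq libraries held 79403238 to 96766516 gene counts in KO and 83785534 to 101884166 in Ctrl, and the RNA-seq libraries 30962756 to 36178838 in KO and 34042299 to 42479828 in Ctrl. The 281 ZNF genes made up 1.06% to 1.16% of the 4sU-seq gene counts in KO and 1.11% to 1.13% in Ctrl, and 1.00% to 1.03% of the RNA-seq gene counts in KO and 0.940% to 0.967% in Ctrl. In RNA-seq these shares, which use counts without further scaling, did not overlap between KO and Ctrl. With RNA-seq libraries scaled by their size alone, the median log2 change was 0.09 over the ZNF genes and 0.19 over all genes. PPM1G fell in KO in nascent RNA (log2 −1.11 ± 0.17, adjusted p = 0.00717) and in total RNA (−1.71 ± 0.06, adjusted p = 1.77e-10). Epithelial markers (EPCAM, KRT8, KRT18, KRT19 and CDH1) stood at 63.4 CPM or more in every library. Among them CDH1 was called higher in KO nascent RNA (log2 1.03) and total RNA (0.34). KRT18 and KRT19 were called lower in total RNA (−0.33 and −0.19), and EPCAM and KRT8 in neither assay. PTPRC, CD3E, DCN, COL1A2 and ALB stood at 0.131 CPM or less. The other 3 of 8 markers of leukocytes, endothelium, fibroblasts and hepatocytes, COL1A1, PECAM1 and VWF, reached 13.0 CPM and were called higher in KO nascent RNA by 1.00, 1.10 and 0.78 on the log2 scale, and COL1A1 in total RNA by 0.98. The 8 summed to 21.7 to 25.6 CPM in KO and 10.6 to 12.2 CPM in Ctrl 4sU-seq, and to 9.92 to 11.4 CPM in KO and 4.38 to 6.51 CPM in Ctrl RNA-seq; their part in the results below was not tested. In such bulk libraries fewer cells of a kind and less RNA per cell cannot be told apart. The nascent KO replicate 2 stood apart: its counts differed from those of KO replicates 1 and 3 by a mean chi-square per gene of 344 and 454, where replicates 1 and 3 differed by 35.5. RNA-seq KO replicates 1 and 2 lay closest to each other, at 1.88 against 12.7 and 13.2 for the other KO pairs, where counting error alone gives 1.

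Not every ZNF gene could be followed in nascent RNA. Only 243 of the 281 had enough 4sU-seq counts to be tested, and 30 had 0 counts in all 6 4sU-seq libraries although each averaged 200 or more counts in RNA-seq. ZNF146, a protein made of zinc fingers alone and the highest member in RNA-seq, had 309, 304 and 326 CPM in KO RNA-seq and 309, 339.9 and 363 CPM in Ctrl RNA-seq, but 0 counts in every 4sU-seq library. These blanks went with the position of other genes. By the GENCODE 29 annotation, which placed 271 of the members, 40 members had 95% or more of their span overlapped by other annotated genes on either strand, and 34 of these had a mean 4sU-seq count under 20. Among the 94 members with between 0 and 25% overlapped none had so low a count, and among the 91 with no overlap there were 3 (ZNF174, ZNF597 and ZNF845, all at 0). ZNF146, for example, lies whole inside the annotated span of ZNF565, and ZNF281 and ZNF12, also at 0 in 4sU-seq, lie inside AC104461.1 and AC073343.2. With ZNF664, which has 96.8% of its span overlapped, these genes had the lowest nascent-to-total ratios of all members. Other protein-coding genes of the same RNA-seq level showed it too: 479 of 581 with 95% or more overlapped were under 20, against 9 of 7924 with under 25%. A 0 in 4sU-seq is therefore given here only as a listed 0 and not as a lack of new RNA, and how reads in overlapping genes were counted was not tested.

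**Figure D1:**
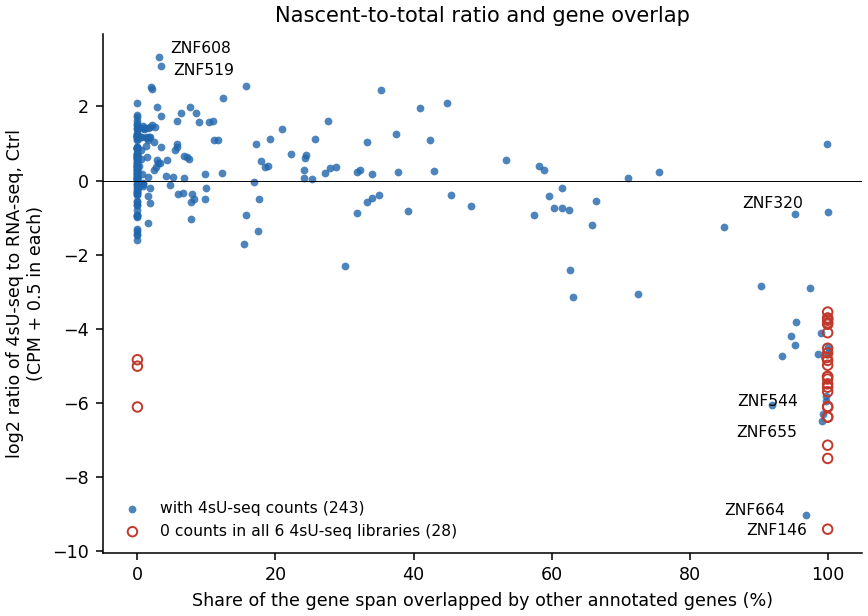
The vertical axis gives log2 of 4sU-seq over RNA-seq CPM (0.5 added to each) in Ctrl cells, plotted against the share of each gene's span that other annotated genes overlap (either strand, in percent), 1 point per ZNF gene with a known position (271). Open circles are the 28 of these with 0 counts in all 6 4sU-seq libraries, 25 of which sit at an overlap of 95% or more; their height shows only their RNA-seq level and the pseudocount.

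Expression levels are given as CPM, the count per 1e+06 counts scaled by TMM (a factor per library that aligns the bulk of the genes), and per kb of exon where genes are compared. By RNA-seq level per kb of exon in Ctrl, ZNF146 stood highest with 75.5 CPM per kb in KO and 81.4 in Ctrl, followed by ZNF664 with 40.3 in KO and 42.1 in Ctrl. ZNF121, ZNF770 and the SCAN gene ZNF24 came next within 28.2 to 29.3 CPM per kb in KO and 26.4 to 32.2 in Ctrl. None of these 5 was called different between KO and Ctrl in total RNA, with log2 changes between −0.14 and 0.10.

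The nascent-to-total ratio, taken as log2 of CPM plus 0.5 in 4sU-seq over the same in RNA-seq, had a median of 0.26 in KO and 0.37 in Ctrl over the 243 tested members. Over the 182 of them with under 25% of the span overlapped the medians were 0.50 in KO and 0.54 in Ctrl, against 0.12 in KO and 0.06 in Ctrl for 7916 other protein-coding genes with the same limits. The members were chosen on their RNA-seq level, so these ratios are descriptions with no test. Longer genes had higher ratios: among the 182, those spanning 50 kb or more had median ratios of 1.06 in KO and 1.18 in Ctrl, and those under 20 kb −0.03 in KO and 0.06 in Ctrl. Spearman's rho of span and Ctrl ratio was 0.49 over these 182 genes, which share their libraries and are not independent replicates. The highest Ctrl ratios belonged to ZNF608, ZNF519, ZNF589 and ZNF169, at 3.33, 3.10, 2.55 and 2.52, with KO ratios of 3.63, 2.25, 2.28 and 2.29. The lowest Ctrl ratios among tested members belonged to ZNF655, ZNF544, ZNF503 and ZNF576, at −6.48, −6.29, −4.74 and −4.44, with KO ratios of −6.61, −6.12, −4.60 and −4.33, and each had 93.3% or more of its span overlapped.

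Among genes called in both assays, the largest increases were those of ZNF516, ZNF704 and ZNF614. ZNF516, known in mouse as an activator of the brown fat programme, spans chr18:76358190-76495190 (hg38, minus strand; ENSG00000101493). It had 299, 235 and 279 CPM in KO nascent RNA, against 50.7, 49.0 and 54.4 CPM in Ctrl. In total RNA it had 40.1, 42.8 and 43.3 CPM in KO, against 14.8, 14.5 and 13.2 CPM in Ctrl. Every KO library lay above every Ctrl library in both assays. ZNF516 rose by 2.40 ± 0.13 on the log2 scale in nascent RNA (edgeR quasi-likelihood test, adjusted p = 0.000265) and by 1.57 ± 0.06 in total RNA (adjusted p = 6.5e-10); the value after ± is a standard error with 3 libraries per group. ZNF704, a transcriptional repressor, had 166, 83.8 and 174 CPM in KO nascent RNA, against 51.1, 43.4 and 66.1 CPM in Ctrl. The KO values lay above the Ctrl values, with KO replicate 2 lowest among them. ZNF704 rose by 1.40 ± 0.31 in nascent RNA (adjusted p = 0.0246) and by 1.27 ± 0.05 in total RNA (adjusted p = 1.21e-09). Its nascent call was lost when any 4sU-seq library other than KO replicate 2 was left out, with adjusted p up to 0.109. ZNF614, a KRAB gene of chromosome 19, had 11.96, 12.2 and 12.6 CPM in KO nascent RNA, against 6.88, 5.87 and 5.77 CPM in Ctrl. It rose by 0.99 ± 0.12 in nascent RNA (adjusted p = 0.0041) and by 0.89 ± 0.10 in total RNA (adjusted p = 6.48e-06), with no overlap between groups.

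The lowest log2 changes among called genes were those of ZNF608 in both assays, followed in total RNA by ZNF217, ZNF91 and ZNF827. ZNF608 entered through Ctrl, with a mean RNA-seq count of 125 in KO and 761 in Ctrl, so its total RNA value is a description, while its nascent value was not used in the choice. ZNF608, a large protein related to ZNF609 with few zinc fingers, spans chr5:124636913-124748807 (minus strand; ENSG00000168916). It had 54.6, 40.1 and 52.4 CPM in KO nascent RNA, against 208, 222 and 237 CPM in Ctrl. In total RNA it had 3.66, 3.24 and 3.61 CPM in KO, against 23.1, 20.9 and 21.0 CPM in Ctrl. The groups did not overlap in either assay, and ZNF608 fell by 2.18 ± 0.15 in nascent RNA (adjusted p = 0.000607) and by 2.63 ± 0.08 in total RNA (adjusted p = 6.49e-11). ZNF91, a KRAB protein with 32 fingers found in its sequence and known for repressing SVA retrotransposons, had 32.2, 22.8 and 36.3 CPM in KO nascent RNA, against 66.4, 59.7 and 70.0 CPM in Ctrl. In total RNA it had 21.1, 21.0 and 20.7 CPM in KO, against 39.9, 41.3 and 43.7 CPM in Ctrl. ZNF91 fell by 1.10 ± 0.19 (adjusted p = 0.0112) in nascent RNA and by 0.99 ± 0.06 (adjusted p = 1.81e-08) in total RNA. ZNF827, which recruits the NuRD complex to telomeres that lengthen without telomerase, had 260.0, 171 and 286 CPM in KO nascent RNA, against 409, 374 and 486 CPM in Ctrl. In total RNA it had 46.0, 46.4 and 46.6 CPM in KO, against 95.3, 87.0 and 87.2 CPM in Ctrl, and fell by 0.96 ± 0.06 (adjusted p = 3.19e-08). Its nascent fall of 0.82 ± 0.21 (adjusted p = 0.0385) and that of ZNF91 missed the threshold when KO replicate 1 or Ctrl replicate 1 was left out, and for ZNF827 also without Ctrl replicate 2 or 3, with adjusted p up to 0.0589 for ZNF91 and 0.116 for ZNF827.

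**Figure D2:**
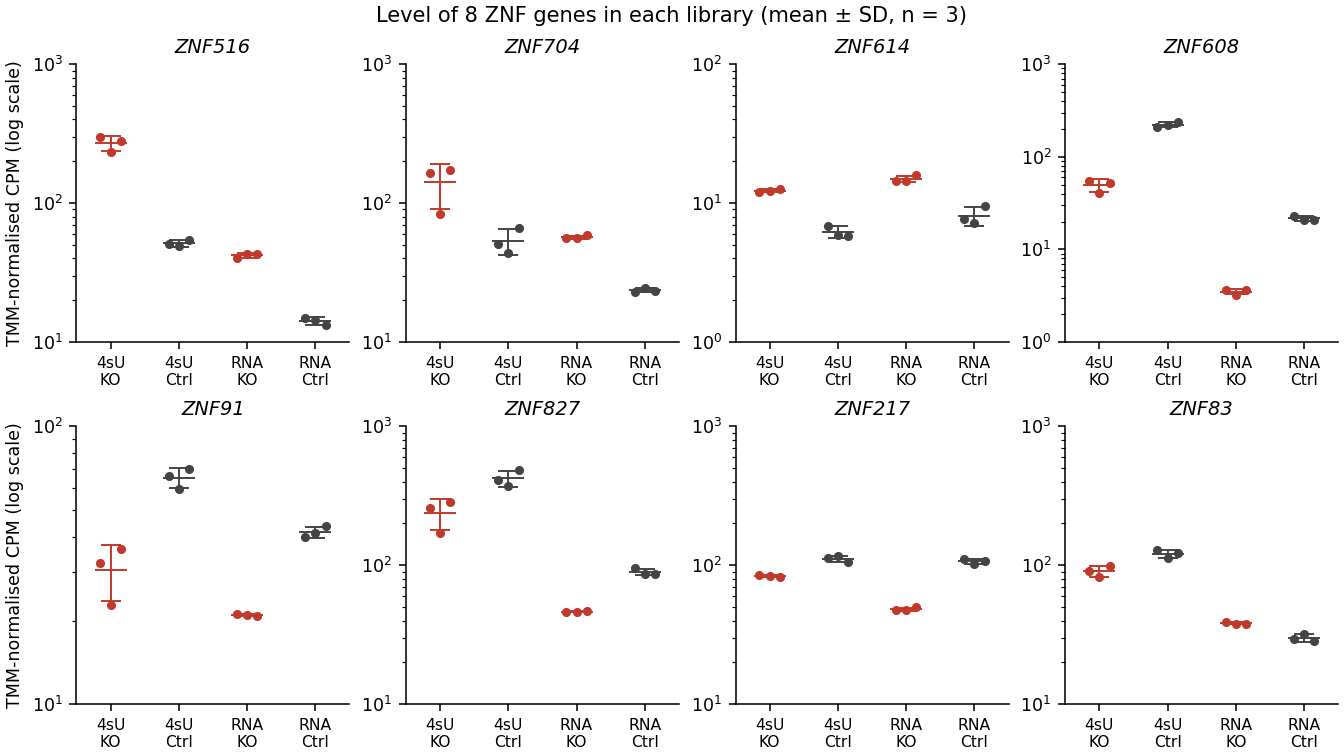
TMM-normalised CPM (log axis) of 8 ZNF genes in each library, as points, with the mean and SD of the 3 libraries of a group; red is KO and grey is Ctrl. ZNF516, ZNF704 and ZNF614 lie higher in KO in both assays, ZNF608, ZNF91, ZNF827 and ZNF217 lower, and ZNF83 lower in nascent and higher in total RNA.

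The promoters of 5 of these genes are printed to show how different the starts of strongly changed ZNF genes are. The windows are from RefSeq on GRCh38.p14, 250 bases before to 50 after the annotated start. Capitals mark the GC box GGGCGG, the CCAAT box CCAAT and the ETS core CCGGAA, each on either strand. ZNF516 (chr18:76495193-76495492, minus strand) and ZNF816 (chr19:52962832-52963131, minus strand) were higher in KO total RNA, and ZNF608 (chr5:124748775-124749074, minus strand), ZNF217 (chr20:53593790-53594089, minus strand) and ZNF91 (chr19:23395422-23395721, minus strand) were lower.
ZNF516: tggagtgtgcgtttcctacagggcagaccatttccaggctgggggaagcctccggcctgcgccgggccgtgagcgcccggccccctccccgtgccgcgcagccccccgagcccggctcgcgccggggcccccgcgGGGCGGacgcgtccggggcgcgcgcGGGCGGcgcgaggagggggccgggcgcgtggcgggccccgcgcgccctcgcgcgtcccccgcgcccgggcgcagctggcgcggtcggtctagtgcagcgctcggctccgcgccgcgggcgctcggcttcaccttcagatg
ZNF816: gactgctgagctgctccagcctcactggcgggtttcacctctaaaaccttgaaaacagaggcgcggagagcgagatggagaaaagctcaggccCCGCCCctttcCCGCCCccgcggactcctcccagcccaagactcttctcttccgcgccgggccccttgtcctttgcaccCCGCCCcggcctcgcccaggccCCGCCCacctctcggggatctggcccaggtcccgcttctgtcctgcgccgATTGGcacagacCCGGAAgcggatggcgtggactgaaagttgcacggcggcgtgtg
ZNF608: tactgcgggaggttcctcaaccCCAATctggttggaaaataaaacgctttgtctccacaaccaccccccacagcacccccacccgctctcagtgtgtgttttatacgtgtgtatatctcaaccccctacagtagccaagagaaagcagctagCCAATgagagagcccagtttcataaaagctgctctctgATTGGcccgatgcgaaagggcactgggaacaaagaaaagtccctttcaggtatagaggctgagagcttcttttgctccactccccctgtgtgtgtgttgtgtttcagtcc
ZNF217: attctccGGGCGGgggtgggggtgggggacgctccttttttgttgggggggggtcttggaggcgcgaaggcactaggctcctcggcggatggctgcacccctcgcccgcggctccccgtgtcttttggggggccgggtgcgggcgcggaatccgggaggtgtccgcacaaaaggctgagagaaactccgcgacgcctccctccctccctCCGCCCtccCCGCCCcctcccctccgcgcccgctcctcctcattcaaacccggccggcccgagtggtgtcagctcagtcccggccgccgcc
ZNF91: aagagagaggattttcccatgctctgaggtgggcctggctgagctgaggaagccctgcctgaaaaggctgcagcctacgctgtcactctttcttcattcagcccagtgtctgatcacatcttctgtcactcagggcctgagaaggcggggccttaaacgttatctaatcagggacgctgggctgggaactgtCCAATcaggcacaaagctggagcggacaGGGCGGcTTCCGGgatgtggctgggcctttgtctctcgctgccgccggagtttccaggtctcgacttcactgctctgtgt
The ZNF516 window held 2 GC boxes and was 81.7% G or C, while the ZNF608 window held 3 CCAAT boxes and no GC box at 50.7% G or C. The ZNF816 window held all 3 motifs, with 4 GC boxes, as did that of ZNF91 with 1 of each, and the ZNF217 window held 3 GC boxes alone. RefSeq's promoters gave 303 windows for 238 of the 281 members. The ETS core was in 47.2% of these, in 28.1% of 11711 windows of other protein-coding genes with the same RNA-seq minimum and in 17.2% of all 35116 windows. It was in 33.9% of 56 windows of members called higher in total RNA and in 48.7% of 115 windows of members called lower. For the CCAAT box the shares were 42.6% of member windows, 34.6% of the other protein-coding windows and 34.6% of all windows, and for the GC box 66.7%, 68.5% and 45.0%. The shares are descriptions with no test, since windows of 1 gene or of neighbouring copies share sequence, and a match is not a bound site.

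In nascent RNA, 7 of the 243 tested ZNF genes were called higher in KO and 33 lower, and 203 were not called, which does not show that these were unchanged. Over all 21236 genes tested, 12.6% were called higher and 6.98% lower, beside 2.88% higher and 13.6% lower of the ZNF genes; the difference in shares was not tested. Among 9604 other protein-coding genes with the same RNA-seq minimum, 5.12% were higher and 9.27% lower. The median log2 change was −0.17 over the ZNF genes, 0.05 over all genes and −0.07 over the other protein-coding genes. With ERCC scaling, which set the median of all genes at 0.27 and that of the ZNF genes at 0.05, ZNF516 was the only ZNF gene called. Calls fell over all genes too, to 672 higher and 44 lower, where TMM gave 2684 and 1482. The ERCC counts ran from 0.0230% to 0.0560% of gene counts in KO 4sU-seq and from 0.0308% to 0.0457% in Ctrl. With library size alone 9 ZNF genes were higher and 16 lower. Calls depended on the libraries: 20 ZNF genes were called higher and 121 lower without KO replicate 2, and 2 to 3 higher and 2 to 19 lower without any other library, of which KO replicate 1 and Ctrl replicates 1 and 2 left at most 3 lower. Beside ZNF516, ZNF704 and ZNF614 the genes called higher were ZNF462, ZNF320, ZNF84 and ZNF641, by 0.85, 0.66, 0.56 and 0.51. ZNF462, a gene of brain development, had 128, 89.6 and 138 CPM in KO nascent RNA, against 63.5, 59.7 and 73.9 CPM in Ctrl. ZNF320 had 7.71 to 9.62 CPM in KO nascent RNA, against 5.05 to 5.88 CPM in Ctrl, and a mean count of 633 in 4sU-seq and 474 in RNA-seq; other annotated genes overlap its whole span. Below ZNF608 and ZNF91 the next lowest among called genes were ZNF649, ZNF239, ZNF827, ZNF783, ZNF428 and ZNF251, between −0.97 and −0.71. ZNF239 fell by 0.84 ± 0.12 (adjusted p = 0.00627), with 17.1, 17.8 and 19.7 CPM in KO nascent RNA, against 35.1, 31.1 and 31.3 CPM in Ctrl.

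In total RNA, 52 of the 281 ZNF genes were called higher in KO and 110 lower, and 119 were not called. Among the 273 members with a mean count of 200 or more in both genotypes, a limit added after the data were seen, 50 were higher and 106 lower. Over all 20415 genes tested, 21.5% were called higher and 26.8% lower, and among 10112 other protein-coding genes with the same minimum 19.1% were higher and 44.6% lower. The ZNF shares, 18.5% higher and 39.1% lower, thus lay closer to those of other expressed protein-coding genes than to those of all genes. The direction of the family as a whole turned with the scaling. Its median log2 change was −0.09 with TMM, 0.09 with library size alone and −0.01 with ERCC scaling, where all genes stood at 0.00, 0.19 and 0.08. With library size alone 107 ZNF genes were called higher and 43 lower, and with ERCC scaling 52 higher and 41 lower. The ZNF median lay below that of all genes in each of these scalings. With TMM it lay above the median of −0.12 over the other protein-coding genes. Changes beyond 2-fold, called or not, were seen in 5 of 281 ZNF genes in total RNA and in 7 of 243 in nascent RNA. Over all genes tested these were 1425 of 20415 and 2510 of 21236. Over the other protein-coding genes they were 261 of 10112 and 339 of 9604.

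**Figure D3:**
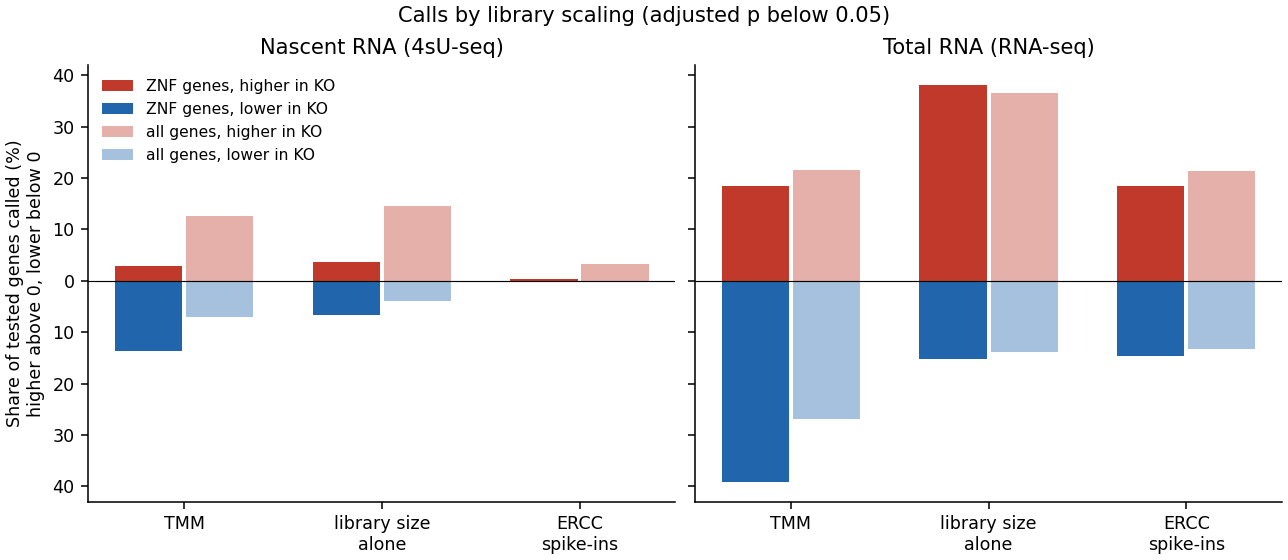
Share of tested genes called higher in KO (above 0) and lower in KO (below 0) under 3 ways of scaling the libraries, for the ZNF genes (full colour) and all genes (pale), in nascent RNA on the left and total RNA on the right. In total RNA the ZNF shares are 18.5% higher and 39.1% lower with TMM, and 38.1% higher and 15.3% lower with library size alone.

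The named changes of total RNA were larger than these shifts, and all 16 kept their call under every scaling, filter, test and left-out library tried. Beside ZNF516 and ZNF704, ZNF816 rose by 1.23 ± 0.08 (adjusted p = 8.87e-08), with 14.6, 14.6 and 13.3 CPM in KO total RNA, against 5.57, 6.10 and 6.55 CPM in Ctrl. ZNF816 is a KRAB gene wholly overlapped by other annotated genes, and it is listed at 0 in every 4sU-seq library. ZNF614, ZNF84, ZNF503, ZNF320 and ZNF572 rose by 0.61 to 0.89. ZNF503, a developmental repressor of the NET family, had 64.0, 68.2 and 67.5 CPM in KO, against 41.3, 39.5 and 42.03 CPM in Ctrl. Beside ZNF608, ZNF91 and ZNF827, the lowest changes were those of ZNF217, ZNF296, ZNF365, ZNF548 and ZNF304, of which ZNF548, like ZNF608, entered through Ctrl. ZNF217, an oncogene of breast cancer that works with the CoREST and CtBP corepressors, had 47.4, 47.3 and 49.7 CPM in KO, against 110.2, 103 and 107 CPM in Ctrl, and fell by 1.15 ± 0.06 (adjusted p = 4.83e-09). ZNF296, a partner of KLF4 in mouse reprogramming, had 20.6, 20.6 and 20.8 CPM in KO, against 40.0, 31.3 and 35.2 CPM in Ctrl. ZNF365, which guards replication at fragile sites, fell by 0.75 ± 0.08 (adjusted p = 5.5e-06). ZNF304, a KRAB protein, had 8.25, 8.53 and 8.46 CPM in KO, against 13.4, 12.7 and 15.0 CPM in Ctrl. It fell by 0.70 ± 0.08 (adjusted p = 8.36e-06), and its nascent change of −0.67 ± 0.20 missed the threshold (adjusted p = 0.0613).

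The assays were set side by side for the 243 genes tested in both. Of 40 ZNF genes called in nascent RNA, 32 were also called in total RNA, 7 higher and 25 lower, and all 32 had the same sign in both. These are 80% of the nascent calls, beside 77.3% over all genes tested in both assays and 85.1% over the other protein-coding genes, where 98.2% and 97.8% of joint calls had the same sign. Another 110 ZNF genes (45.3%) were called in total RNA alone, beside 40.8% of all genes and 51.8% of the other protein-coding genes. Across genes the log2 changes had a Pearson r of 0.74 and a Spearman rho of 0.61 over the 243 genes, and a Pearson r of 0.64 over the 236 that moved by no more than 1 in nascent RNA; genes are not independent replicates and no p is given.

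**Figure D4:**
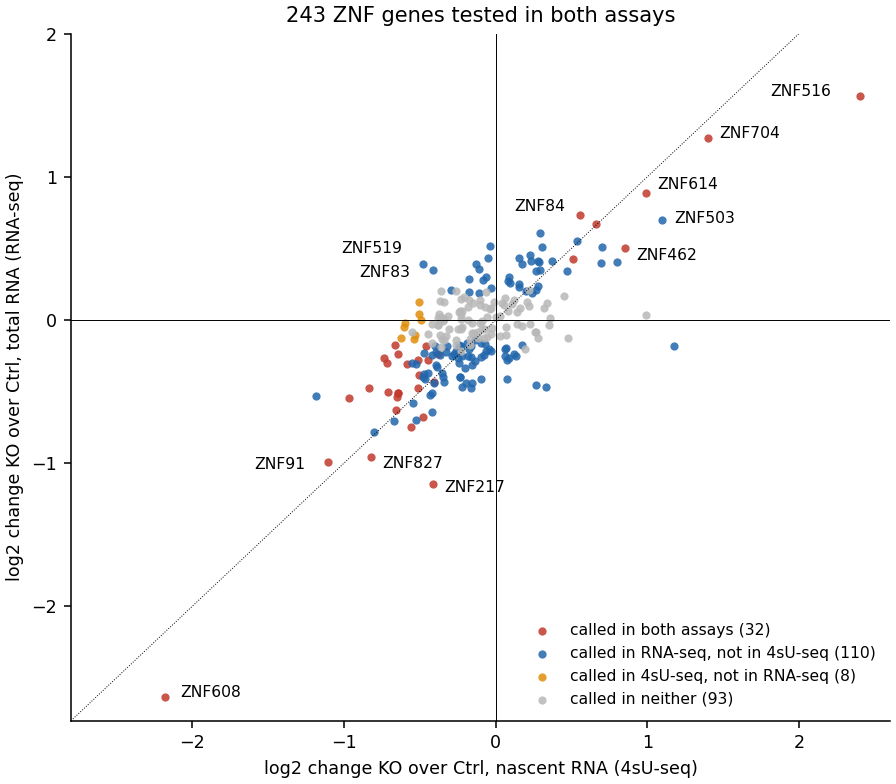
Each point is 1 of the 243 ZNF genes tested in both assays, with its log2 change KO over Ctrl in nascent RNA (x) and in total RNA (y); colours show in which assay it was called and the dotted line marks equal change. The 32 genes called in both lie in the lower left and upper right, from ZNF608 to ZNF516.

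Whether the KO change differed between nascent and total RNA was asked with an interaction term over all 12 libraries. It was called higher (a more positive KO change in nascent than in total RNA) for 2 ZNF genes and lower for 3, where 1.25% of all 15863 genes were called higher and 1.25% lower. ZNF217 fell by 0.42 ± 0.10 in nascent RNA, with 85.4, 83.1 and 82.3 CPM in KO, against 113, 116 and 106 CPM in Ctrl, which is less than its fall in total RNA (difference 0.74 ± 0.11, adjusted p = 0.00683). ZNF516 rose more in nascent than in total RNA (difference 0.84 ± 0.16, adjusted p = 0.0214). ZNF519 and ZNF83, both KRAB genes, had log2 changes of opposite sign, called higher in total RNA (0.39 and 0.35) and not called in nascent RNA (−0.48 and −0.41). ZNF519 had 60.8, 52.5 and 73.1 CPM in KO nascent RNA, against 87.4, 85.1 and 88.0 CPM in Ctrl, and in total RNA 13.0, 12.6 and 12.5 CPM in KO, against 9.10, 10.7 and 9.34 CPM in Ctrl. The KO libraries lay below Ctrl in nascent RNA and above Ctrl in total RNA (difference −0.86 ± 0.19, adjusted p = 0.0382). ZNF83 had 90.6, 82.9 and 99.2 CPM in KO nascent RNA, against 129, 112 and 122 CPM in Ctrl, and in total RNA 38.9, 37.7 and 37.97 CPM in KO, against 29.4, 32.0 and 28.4 CPM in Ctrl (difference −0.76 ± 0.15, adjusted p = 0.0247). ZNF771 was lower by 0.60 ± 0.14 in nascent RNA and had a change of −0.05 ± 0.06 in total RNA (difference −0.56 ± 0.13, adjusted p = 0.0483). With ERCC scaling none of the 5 was called (adjusted p = 1.00 for each), and without nascent KO replicate 2 the counts were 21 higher and 38 lower. ZNF217 kept its call when any library was left out, while the others lost theirs without at least 8 of the 12 libraries in turn.

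The lists by role used here and below are picks and need not be complete. They were drawn up with earlier results of these data known, so their shares are descriptions. Of 11 members listed for retroelement or imprint targets 6 fell in total RNA and 1, ZNF84, rose by 0.73 ± 0.07 (adjusted p = 1.99e-06). The median of the 11 was −0.24, against 0.00 over all genes. The shares were 9.09% higher and 54.5% lower, beside the 21.5% and 26.8% of all genes and the 19.1% and 44.6% of other protein-coding genes given above. Those that fell were ZNF91, ZNF649, ZNF417, ZNF746, ZNF587 and ZNF445, which guards imprints; ZNF417 and ZNF587 are near-identical neighbours whose reads may be shared, and both are listed at 0 in 4sU-seq. With library size alone 3 of the 11 fell and 2 rose, and with ERCC scaling 3 fell and 1 rose. In nascent RNA 2 of 9 fell and 1 rose. These are 22.2% and 11.1%, beside 6.98% and 12.6% of all genes and 9.27% and 5.12% of other protein-coding genes.

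Activators and co-regulators moved both ways. Of 30 members 11 rose and 10 fell in total RNA. With library size alone the counts were 17 and 7, and with ERCC scaling 11 and 6. The TMM shares of 36.7% and 33.3% stand beside 21.5% and 26.8% of all genes and 19.1% and 44.6% of other protein-coding genes. This list, chosen with earlier results known, holds 4 of the 5 members that changed beyond 2-fold in total RNA, so its shares are not independent of the choice. Of 29 tested in nascent RNA 3 rose (ZNF516, ZNF704 and ZNF462) and 4 fell (ZNF608, ZNF827, ZNF217 and ZNF367). These are 10.3% and 13.8%, beside 12.6% and 6.98% of all genes and 5.12% and 9.27% of other protein-coding genes. ZNF143, an activator of snRNA and many cell growth genes that also sits at chromatin loops, rose by 0.20 in total RNA (adjusted p = 0.0128). ZNF292 rose by 0.51 ± 0.07 (adjusted p = 3.64e-05), ZNF318 fell by 0.52 ± 0.06 (adjusted p = 1.35e-05), and ZNF609, related to ZNF608, fell by 0.41 ± 0.06 in total RNA (adjusted p = 0.000123) with a nascent change of 0.07 ± 0.10. ZNF711, a partner of the demethylase PHF8, fell by 0.47 ± 0.06 (adjusted p = 4.51e-05).

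Members listed for work on RNA, ribosomes or the spindle showed small changes. Of 14 members 9 fell and 0 rose in total RNA with TMM by edgeR (1 higher at an unadjusted p below 0.05, 0 by the DESeq2 Wald test), but 1 fell and 2 rose with library size alone and 1 fell and 1 rose with ERCC scaling. The 64.3% lower stands beside 26.8% of all genes and 44.6% of other protein-coding genes. ZNF185, ZNF451 and ZNF791, whose part in such work was not checked, were among those called lower, by 0.26, 0.18 and 0.17. ZNF326, of the DBIRD complex that couples splicing to elongation, fell most, by 0.45 ± 0.06 in total RNA (adjusted p = 2.82e-05), with a nascent change of 0.26 ± 0.33. ZNF598, a sensor of collided ribosomes, had a log2 change of −0.25 and ZNF207, a spindle protein, of −0.16. Of 12 tested in nascent RNA 1 fell, ZNF346, which binds double-stranded RNA. This is 8.33%, beside 6.98% of all genes and 9.27% of other protein-coding genes. Of 15 listed SCAN members 6 fell and 0 rose in total RNA (1 higher at an unadjusted p below 0.05, 0 by DESeq2). For these, library size alone gave 1 lower and 4 higher and ERCC scaling 1 lower. The SCAN list is not complete and leaves out, for example, ZNF18, ZNF197, ZNF215 and ZNF483. The 40% of listed SCAN members lower lies near the 44.6% of other protein-coding genes. In nascent RNA edgeR called 0 of 13 listed SCAN members, 4 were lower at an unadjusted p below 0.05 and DESeq2 called 3 lower.

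Of 22 genes of the TRIM28 pathway, through which KRAB proteins work, 14 fell in total RNA by edgeR, with a median of −0.22. The number that rose was 0, also at an unadjusted p below 0.05 and by DESeq2. The share lower was 63.6%, beside 26.8% of all genes and 44.6% of other protein-coding genes. With ERCC scaling 9 fell, and with library size alone 9 fell and 4 rose. In nascent RNA 3 of 22 fell, the HP1 genes CBX5 and CBX1 and UHRF1, and none did with library size alone. The 3 of 22 are 13.6%, beside 6.98% of all genes and 9.27% of other protein-coding genes. CBX5 fell by 0.75 ± 0.05 in total RNA (adjusted p = 6.91e-08), with 229 ± 2.03 CPM in KO and 386 ± 6.04 CPM in Ctrl (SD, n = 3 each). TRIM28 averaged 722 ± 15.4 CPM in KO and 929.9 ± 23.8 CPM in Ctrl (SD, n = 3 each) and fell by 0.37 ± 0.05 (adjusted p = 0.000101), while its nascent change was −0.27 ± 0.31. SETDB1 had a change of −0.08 ± 0.05 (adjusted p = 0.202). Among 81 other zinc finger genes with ZBTB, ZFP, ZSCAN, ZKSCAN or lettered ZNF symbols, 17 rose and 33 fell in total RNA, shares of 21.0% and 40.7%, beside 18.5% and 39.1% of the members, and with library size alone 34 rose and 20 fell. In nascent RNA 7 of 73 of these relatives fell and 0 rose by edgeR, where 6 were higher at an unadjusted p below 0.05 and DESeq2 called 3 higher. Their 9.59% lower lies near the 9.27% of other protein-coding genes, of which 5.12% were higher.

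The KRAB pattern was found in some coding sequence of 140 members and in no coding sequence of 131. In total RNA 23 KRAB members rose and 52 fell, while 28 of the other members rose and 54 fell; with library size alone the counts were 59 and 20 for KRAB members and 45 and 21 for the others. The shares were 16.4% higher and 37.1% lower for KRAB members and 21.4% and 41.2% for the others, near the 19.1% and 44.6% of other protein-coding genes. In nascent RNA 3 of 119 tested KRAB members rose and 17 fell, and 4 of 116 other members rose and 14 fell, shares of 2.52% and 14.3% for KRAB members and 3.45% and 12.1% for the others, beside 5.12% and 9.27% of other protein-coding genes. The median nascent change was −0.23 over KRAB members and −0.08 over the others, and 0.01 and 0.11 with ERCC scaling. The members had a median of 10 zinc fingers by the C2H2 pattern and at most 34 (ZNF462). Spearman's rho of finger number and total change was 0.05 over 271 genes. Neither split was tested, since its genes share libraries and many are copies of each other.

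Chromosome 19 held 105 of the 271 placed members, of which 17 rose and 45 fell in total RNA, or 37 and 18 with library size alone. The shares of 16.2% and 42.9% lie near those of other protein-coding genes over all chromosomes. On chromosome 19 itself, 82 of 575 other protein-coding genes rose and 306 fell. In steps of 5 Mb, the pair of stretches with the most members lie next to each other at the end of the long arm and differed in their counts. From 55 Mb on, 21 of 31 members fell in total RNA by edgeR and 0 rose (0 also at an unadjusted p below 0.05 and by DESeq2), with a median of −0.22. With ERCC scaling 8 fell, without Ctrl replicate 2 of RNA-seq 19 fell and 1 rose, and with library size alone 9 fell and 3 rose. ZNF548, which entered through Ctrl with a mean count of 174 in KO and 282 in Ctrl, and ZNF304 had the lowest changes there, −0.74 and −0.70, and 19 of the 29 members with 200 or more in both genotypes fell. From 50 to 55 Mb, 8 of 21 members rose and 5 fell, or 11 and 2 with library size alone and 7 and 2 with ERCC scaling; ZNF816, ZNF614 and ZNF320 were among those that rose. Of 30 other protein-coding genes from 55 Mb on, 17 fell and 7 rose, and of 15 from 50 to 55 Mb, 8 fell and 5 rose. Over all genes tested in total RNA, 26.8% fell and 21.5% rose. In nascent RNA 1 of 22 tested members fell from 55 Mb on, and 7 were lower at an unadjusted p below 0.05; the other 9 were not tested. These stretches were singled out after their values were seen, and the difference between them was not tested.

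**Figure D5:**
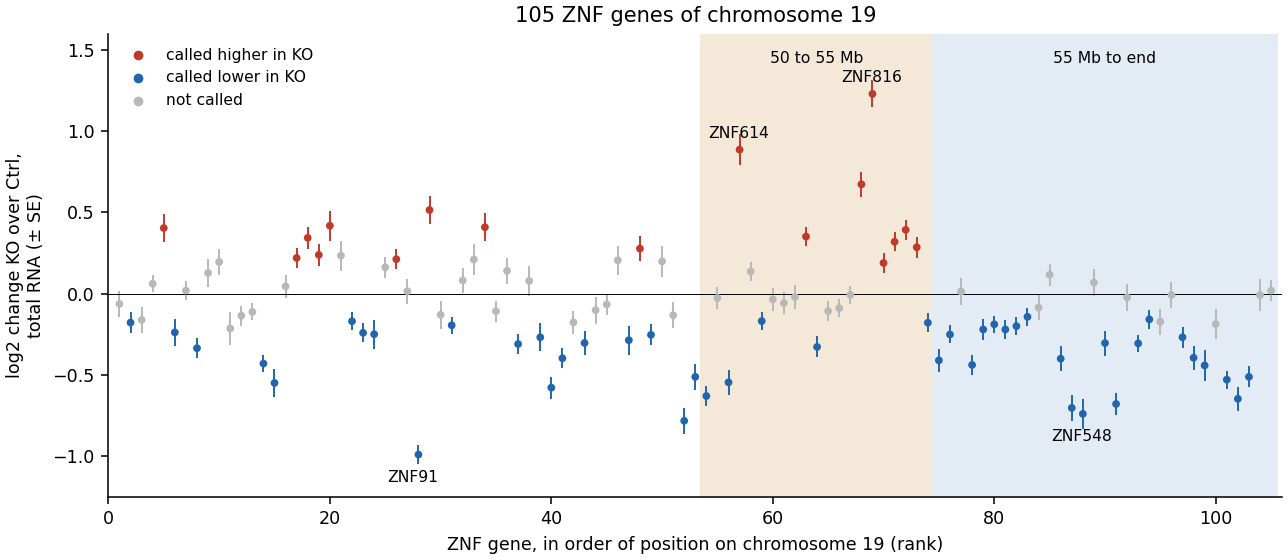
Log2 change KO over Ctrl in total RNA (± SE) of the 105 ZNF genes of chromosome 19, in order of position, coloured by call. The shaded stretches hold 21 genes (50 to 55 Mb, 8 higher and 5 lower) and 31 genes (55 Mb to the end, 0 higher and 21 lower).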

How the data were processed

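The submitters' processing notes name HISAT2 2.1.0, SAMtools 1.3, FastQC 0.11.2, featureCounts and the hg38 build. For annotation, strand setting and treatment of overlaps, the answer is not given in the sources used here. The authors deposited raw counts per gene, 1 table per assay, with ERCC rows, which were left out of library sizes. Each assay was fitted whole with edgeR 4.0.16 (R 4.3.3): filterByExpr (minimum count 10), TMM, quasi-likelihood F test, two-sided, Benjamini-Hochberg adjustment over all genes tested, threshold 0.05. The interaction used all 12 libraries with TMM within each assay. A standard error is the log2 change over the square root of F. A count of 3, taken as the floor of detection, stands for 0.0302 to 0.0365 CPM in 4sU-seq and 0.0740 to 0.0973 CPM in RNA-seq and covers counting error only.

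Positions, overlaps and coding sequences came from GENCODE 29 (hg38), which placed 271 members and may not be the authors' annotation. Fingers were counted by a sequence pattern in the translated longest coding sequence. The KRAB pattern was searched for in every translated coding sequence of a gene. Named genes were the 8 highest and 8 lowest changes among called members per assay (7 were higher in nascent RNA), the 4 highest and lowest called interactions, the 4 highest and lowest Ctrl ratios (over tested members, with the 4 lowest of all members), the 5 highest levels per kb (Ctrl), 3 genes either side of the minimum, and members of the role lists; ZNF32, ZNF329, ZNF597, ZNF845 and the stretches of chromosome 19 were chosen after their values were seen. The members and lists were chosen with earlier results of these data known. Alternatives were DESeq2 size factors and Wald test (DESeq2 1.42.0), ERCC scaling, library size alone, other filters, pseudocounts and count minimums, a replicate block and leaving out each library; leaving out overlapped genes, leaving out members with a mean count under 200 in either genotype, and adding RNA-seq KO replicates 1 and 2 together were added after the data were seen. The fits were tested on simulated counts. Tables and figures were made with Python 3.11.15 (matplotlib 3.10.9).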

Additional observations from a re-analysis of the deposited data

Results flagged for a closer look

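For 5 of 243 ZNF genes the KO change differed between nascent and total RNA by the interaction test, 2 higher and 3 lower. These are 0.82% and 1.23%, beside 1.25% and 1.25% of all 15863 genes. With ERCC scaling 0 ZNF genes were called, and 7 of all 15863 genes. With RNA-seq KO replicates 1 and 2 added together 1 ZNF gene was called. The KO change in nascent RNA minus that in total RNA was 0.84 on the log2 scale for ZNF516 and 0.74 for ZNF217, and it was −0.86 for ZNF519, −0.76 for ZNF83 and −0.56 for ZNF771. The nascent and total KO changes were −0.48 and 0.39 for ZNF519 and −0.41 and 0.35 for ZNF83, and for both genes the total change passed the threshold and the nascent change did not. All 5 values rest on the same 12 libraries as the comparisons within each assay and are no independent evidence.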

How the results depend on the processing

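Counts of called ZNF genes moved with the processing, and the cause was not tested. In nascent RNA (7 higher, 33 lower) there were 1 and 0 with ERCC scaling, 16 lower with library size alone, 61 lower by the DESeq2 Wald test, 11 higher with a minimum of 100 counts, and 4 higher and 19 lower with 500. Leaving out 1 library gave 2 to 20 higher and 2 to 121 lower. In total RNA (52 higher, 110 lower) there were 41 lower with ERCC scaling, 107 higher and 43 lower with library size alone, 32 higher with a minimum of 500 counts and 71 lower of the 185 members under 25% overlapped (fewer genes); leaving out 1 library gave 43 to 65 higher and 82 to 94 lower. For the difference between assays (2 higher, 3 lower) there were 0 and 0 with ERCC scaling, 10 lower with library size alone, 7 lower with a mean of at least 50 counts, 4 higher and 17 lower by the DESeq2 Wald test, 1 higher and 0 lower with RNA-seq KO replicates 1 and 2 added, and 1 to 21 higher and 0 to 38 lower without 1 library. The median nascent-to-total ratio (0.26 in KO, 0.37 in Ctrl) was 0.21 in KO and 0.42 in Ctrl with library size alone, 0.33 in Ctrl with a pseudocount of 2 CPM and 0.50 in KO and 0.54 in Ctrl under 25% overlap; without 1 library it was 0.24 to 0.33 in KO and 0.34 to 0.36 in Ctrl. All 16 named changes of total RNA kept their call throughout, while 14 of 15 nascent ones lost theirs with ERCC scaling and 11 of 15 without some library. With a replicate block the calls were 13 higher and 64 lower in nascent RNA, 59 and 111 in total RNA and 3 and 4 for the difference; same-numbered KO and Ctrl libraries had deviations correlated at −0.06, 0.67 and 0.66 in 4sU-seq and −0.03, 0.15 and 0.21 in RNA-seq (not every pair above 0.1), so the numbers were not taken to pair them.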
